A study of Mus musculus with 7 samples.

Results

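The homeostatic genes of microglia were examined in 5xFAD mice, a transgenic model in which neurons express mutant human amyloid precursor protein and presenilin from the Thy1 promoter and amyloid plaques form. A list of 32 gene symbols defined the set, and a row of the deposited table was taken for each symbol through the probe annotation. This gave 31 genes with 1 row each among 19505 named genes, while Kctd12 was not analysed here. Live cells carrying CD45 and CD11b were sorted from brain suspensions, and total RNA from each sample was hybridized to 1 array. All mice were on the C57BL/6 strain and carried the 5xFAD transgenes, and the series holds no array of mice without them. B2m was intact in 3 samples (5xFAD;B2m+/+, called wildtype) and disrupted in 4 (5xFAD;B2m–/–, called knockout). The disruption of B2m is carried by every cell of the animal and is not limited to microglia. The sources used here did not give the age or sex of the mice, nor whether each sample came from a separate animal. The p-values therefore reflect only how far these samples spread, and some of that spread may be technical. Values are log2 expression, and differences are knockout minus wildtype on that scale.

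Homeostatic genes are those that resting microglia of the healthy brain express strongly, and many of them are weak or absent in other macrophages. They include sensors of nucleotides and chemokines, receptors for growth factors, and the transcription factors that hold microglial identity under the influence of TGF-beta and of signalling through the CSF1 receptor. Around amyloid plaques, microglia are known to lower many of these genes while they raise a disease-associated set. B2m encodes the light chain of MHC class I, which presents peptides to CD8+ T cells, and few CD8+ T cells develop without it. The comparison asks whether the homeostatic programme differed between plaque-bearing brains with and without B2m.

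RefSeq promoter windows (assembly GRCm38.p6) were at hand for 21 of the 32 genes, in 25 windows. The 250 bases before the start of transcription are shown for P2ry12 and P2ry13, neighbouring nucleotide receptor genes on chromosome 3, because both are in most definitions of this programme and both hold the ETS-type letters AGGAAG close to the start. Both genes lie on the minus strand, at chr3:59262986-59263235 and chr3:59210883-59211132. Sequences read 5′ to 3′ along the gene, and capitals mark AGGAAG.
P2ry12: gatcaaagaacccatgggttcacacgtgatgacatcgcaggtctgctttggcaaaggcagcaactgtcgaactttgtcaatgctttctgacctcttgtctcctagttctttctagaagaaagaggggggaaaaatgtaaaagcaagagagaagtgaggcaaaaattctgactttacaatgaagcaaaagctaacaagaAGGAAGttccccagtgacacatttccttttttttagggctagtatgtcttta
P2ry13: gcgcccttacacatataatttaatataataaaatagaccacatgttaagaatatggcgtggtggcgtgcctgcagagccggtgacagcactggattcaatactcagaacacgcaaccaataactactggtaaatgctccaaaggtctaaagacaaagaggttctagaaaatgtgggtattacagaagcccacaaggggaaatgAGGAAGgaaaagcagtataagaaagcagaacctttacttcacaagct
The letters AGGAAG, searched on both strands, contain the GGAA core bound by ETS factors such as PU.1, the main regulator of macrophages. They begin 52 bases before the start in P2ry12 and 47 bases before it in P2ry13. They occurred in 10 of the 25 windows of these genes (40.0%) and in 29.5% of all 32851 windows. The longer PU.1 form GAGGAAGT, which contains AGGAAG, occurred in 0 of the 25 windows and in 2.44% of all windows. The MAF half-site TGCTGAC occurred in 2 windows, those of Crybb1 and Sparc, and in 3.81% of all windows. The MEF2 forms CTAAAAATA and CTATTTATA occurred in 0 of the 25 windows each, and in 0.469% and 0.387% of all windows. These matches describe letters in a short window and were not tested as binding sites.

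Most genes of the set were detected in every sample. On all 7 arrays, 29 of the 31 genes lay above the array's 95th percentile of negative control rows, which lay at 9.35 to 9.55. Of the 10004 genes that passed the filter on dim genes, 3537 lay above that percentile on all 7 arrays. Maf, a transcription factor of macrophages, lay above it on 5 arrays. Ecscr, known from endothelial cells and also listed for microglia, lay above it on 0 arrays (7.23 to 8.32). Ecscr was also the 1 member that failed the filter on dim genes, so 30 members were tested. Disruption of B2m itself was visible in its mRNA, which fell by 2.99 (SE 0.10, limma adjusted p = 1.54e-07).

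No member passed the test between genotypes. Of the 30 tested members, 0 had a limma adjusted p under 0.05, against 5 of 10004 genes tested (0.05%), and the lowest adjusted p among the members was 0.407. At an unadjusted p under 0.05, 2 members were counted, and 11.9% of all genes tested were, 1 higher and 1 lower in knockout samples, beside 8.39% and 3.54% of all genes tested in those directions. Arrays of the genotypes did not overlap in 1 member, Rhob, which was higher in knockout samples. Of all genes tested, 10.9% showed no overlap, 7.1% with knockout higher and 3.8% with knockout lower. The median difference over the 30 members was -0.015, beside -0.0055 over all genes tested, with 9 members above 0 and 21 below. Differences ran from -0.33 in Lag3 to 0.30 in Upk1b, and 20 members lay within 0.1 of 0. In these bulk samples, fewer microglia in the sort and less RNA per microglial cell cannot be told apart.

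The intervals of these differences were narrow for most members. The 95% confidence interval stayed between -0.5 and 0.5 in 27 of the 30, and Lag3, Upk1b and Nav3 were the other 3. It stayed between -1 and 1, which is 2-fold either way, in all 30. The median SD within genotypes was 0.096 over the members and 0.159 over all genes tested.

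**Figure D1:**
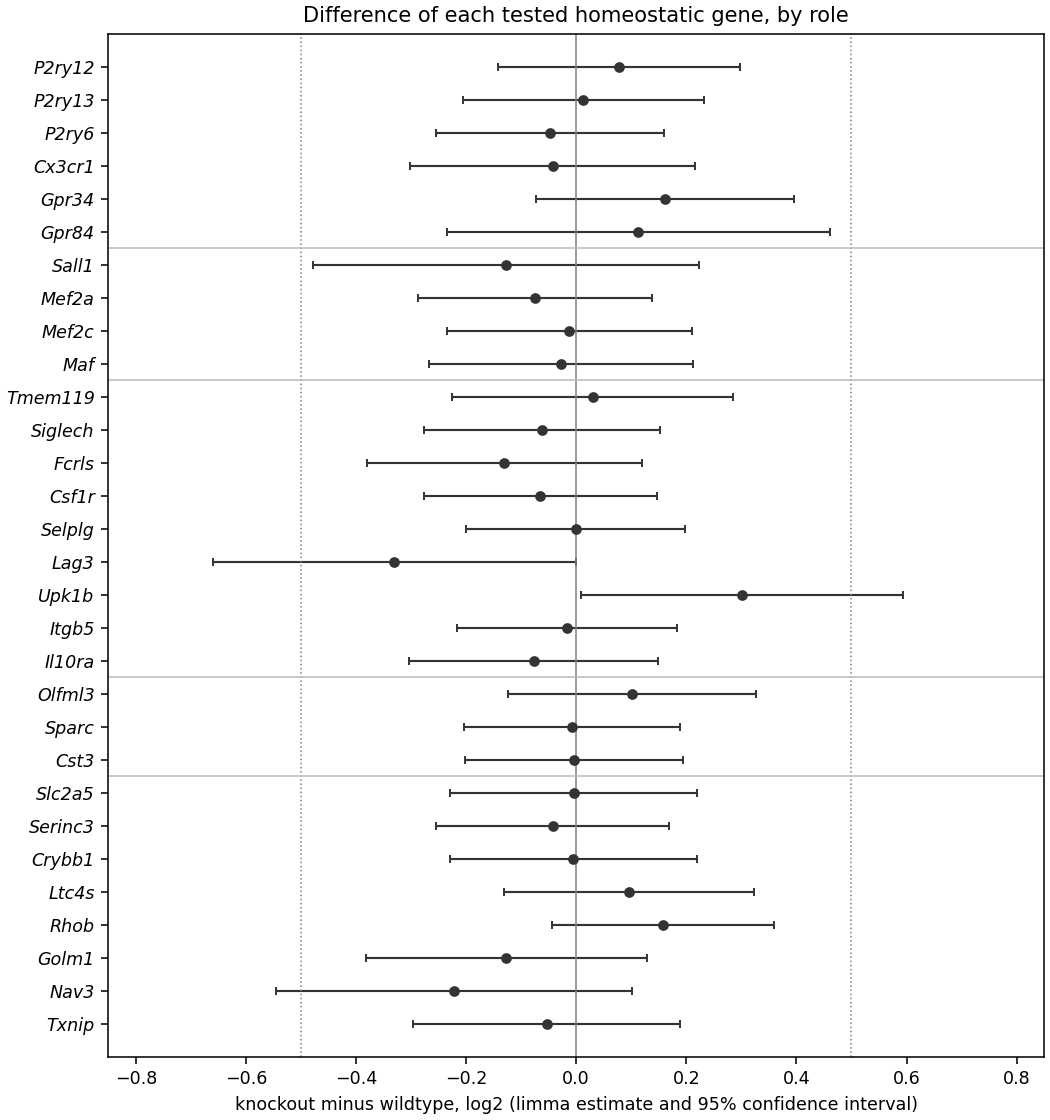
Difference between knockout and wildtype samples of sorted cells on the log2 scale for the 30 tested homeostatic genes, ordered by role. Points are the limma estimate and bars its 95% confidence interval. Dotted lines stand at -0.5 and 0.5, and grey horizontal lines part the role groups. Estimates lie between -0.33 and 0.30, and the intervals of Lag3, Upk1b and Nav3 are the ones that cross a dotted line.

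The G protein-coupled receptors, through which microglia read their surroundings, differed little. P2ry12, the ADP receptor that steers process extension towards injury, was 13.09, 12.93 and 12.89 in wildtype replicates 1 to 3 and 13.11, 13.01, 12.95 and 13.10 in knockout replicates 1 to 4. The genotypes overlapped, with means of 12.97 ± 0.10 (SD, n = 3) and 13.04 ± 0.075 (SD, n = 4). The difference of 0.077 (SE 0.099, limma adjusted p = 0.796) had a 95% confidence interval of -0.14 to 0.30, or 0.906-fold to 1.23-fold. Cx3cr1, the receptor for the neuronal chemokine fractalkine, was 12.37, 12.13 and 12.21 in wildtype and 12.20, 11.995, 12.19 and 12.39 in knockout samples. Its difference was -0.043 (SE 0.12), and knockout samples held both the lowest and the highest value. Gpr34, a receptor for lysophosphatidylserine, was 12.15, 11.95 and 12.11 in wildtype and 12.39, 12.11, 12.20 and 12.22 in knockout samples. It had the largest difference of the 6 receptors at 0.16 (SE 0.11, limma adjusted p = 0.565), with 1 knockout sample inside the wildtype range. P2ry13, another ADP receptor, and P2ry6, the UDP receptor that triggers phagocytosis, differed by 0.013 (SE 0.099) and -0.047 (SE 0.094). Gpr84, a receptor for medium-chain fatty acids that activated microglia raise, had the widest spread of the 6 among wildtype samples, at 10.88, 10.20 and 10.69, against 10.63, 10.61, 10.68 and 10.90 in knockout samples, with means of 10.59 ± 0.35 (SD, n = 3) against 10.70 ± 0.14 (SD, n = 4).

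All 4 transcription factors had differences below 0, as did 21 of the 30 tested members and 5138 of 10004 genes tested. None of the 4 passed, and each difference was smaller than its SE. Sall1, the zinc finger factor that keeps microglia apart from other macrophages, was 10.77, 10.95 and 10.56 in wildtype and 10.44, 10.45, 10.60 and 11.03 in knockout samples. Knockout replicates 1 and 2 lay below all wildtype samples, while knockout replicate 4 held the highest value of all. The difference was -0.13 (SE 0.16, limma adjusted p = 0.788), and without knockout replicate 4 it was -0.26 (limma adjusted p = 0.363, within 0.363 to 0.982 over the 17 alternatives with 2 or more wildtype arrays). Without wildtype replicate 2, the highest wildtype sample, it was -0.031, and without knockout replicate 1 or 2 it was -0.063 and -0.067. Mef2a and Mef2c, MADS-box factors tied to microglial identity, differed by -0.075 (SE 0.096) and -0.013 (SE 0.10), and Maf by -0.028 (SE 0.11).

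Among the other surface receptors and adhesion proteins, the tested genes apart from Lag3 and Upk1b were close between genotypes, with differences from -0.13 to 0.030. Tmem119, a membrane protein largely restricted to microglia in the brain, was 11.78, 12.01 and 12.07 in wildtype and 11.92, 11.95, 12.17 and 11.88 in knockout samples, a difference of 0.030 (SE 0.11, limma adjusted p = 0.942). All 4 knockout samples lay above the lowest wildtype sample, and 1 lay above the highest. Csf1r, the receptor on which microglial survival depends, was 13.47, 13.38 and 13.26 in wildtype and 13.28, 13.29, 13.29 and 13.36 in knockout samples, a difference of -0.065 (SE 0.096, limma adjusted p = 0.828). Fcrls, an Fc receptor-like scavenger molecule, was 12.62, 12.27 and 12.37 in wildtype and 12.32, 12.15, 12.32 and 12.37 in knockout samples. Its difference of -0.13 (SE 0.11) came with a wildtype replicate 1 that lay above all the other samples, and it was -0.032 without that sample. Siglech, a sialic acid-binding lectin, differed by -0.062 (SE 0.097), and Il10ra, the ligand-binding chain of the interleukin-10 receptor, by -0.077 (SE 0.10). Selplg, the selectin ligand PSGL-1, and the integrin chain Itgb5 differed by -0.00099 (SE 0.090) and -0.016 (SE 0.090). Ecscr was described by its values only, at 8.32, 7.23 and 7.83 in wildtype and 7.67, 7.47, 7.90 and 7.63 in knockout samples, with no order between genotypes.

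Lag3 and Upk1b, of the same group, had the largest differences of the set and went opposite ways. Lag3 encodes a receptor for MHC class II best known as a checkpoint of T cells and also expressed by microglia. It was 10.71, 10.23 and 10.46 in wildtype and 10.22, 9.98, 9.94 and 10.41 in knockout samples. All but 1 of the knockout samples lay below the lowest wildtype sample, and knockout replicate 4 lay within the wildtype range. The means were 10.47 ± 0.24 (SD, n = 3) and 10.14 ± 0.22 (SD, n = 4), a difference of -0.33 (SE 0.15, unadjusted p = 0.0496, limma adjusted p = 0.417). This is 1.26-fold lower in knockout samples, with a 95% confidence interval of 1.001-fold to 1.58-fold. Without wildtype replicate 1 the difference was -0.21 (limma adjusted p = 0.771, within 0.238 to 0.771 over those 17 alternatives), and it ran from -0.45 to -0.21 when single samples were left out.

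Upk1b, a tetraspanin first described in the bladder lining and enriched in microglia, was 11.39, 10.91 and 11.06 in wildtype and 11.42, 11.57, 11.25 and 11.44 in knockout samples. Wildtype replicate 1 lay inside the knockout range and the other 2 wildtype samples lay below it. The means were 11.12 ± 0.25 (SD, n = 3) and 11.42 ± 0.13 (SD, n = 4), a difference of 0.30 (SE 0.13, unadjusted p = 0.0447, limma adjusted p = 0.407). This is 1.23-fold higher, with a 95% confidence interval of 1.01-fold to 1.51-fold. It was 0.20 without wildtype replicate 2 (limma adjusted p = 0.733, within 0.299 to 0.733 over those 17 alternatives).

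**Figure D2:**
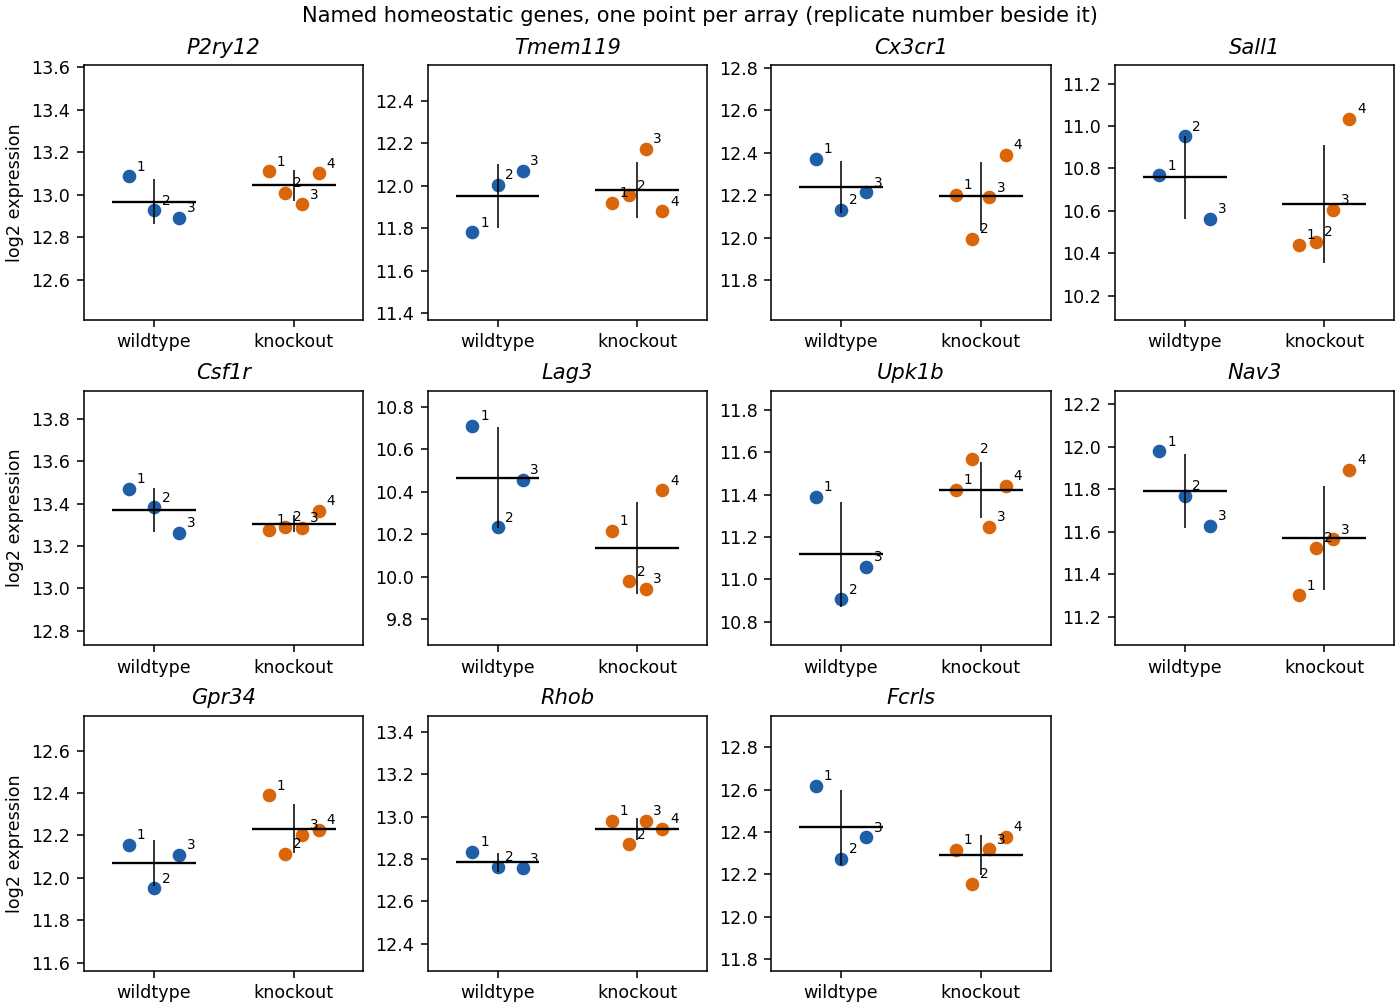
Log2 expression of 11 homeostatic genes in each array, with wildtype samples in blue, knockout samples in orange, replicate numbers beside the points, and mean ± SD as black lines; each panel spans the same range of 1.2 log2 units around its own centre. Rhob is the panel without overlap between genotypes, and knockout replicate 4 is the highest knockout sample in Sall1, Csf1r, Cx3cr1, Lag3, Nav3 and Fcrls.

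Of the 3 secreted and matrix proteins, Sparc and Cst3 varied little between samples, with SDs within genotypes of 0.029 and 0.036, while that of Olfml3 was 0.096. Cst3, which encodes the protease inhibitor cystatin C, lay between 14.05 and 14.10 in wildtype and between 14.01 and 14.11 in knockout samples, a difference of -0.0042 (SE 0.089). Sparc, a matrix glycoprotein, lay between 13.77 and 13.81 in wildtype and between 13.73 and 13.80 in knockout samples, a difference of -0.0076 (SE 0.089). Both stood near the highest value on each array (14.16 to 14.34), and whether the scale was compressed there was not tested. Olfml3, an olfactomedin-like matrix protein, lay lower on the scale and differed by 0.10 (SE 0.10).

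Of the transporters, enzymes and intracellular proteins, Rhob was the one gene of the whole set whose genotypes did not overlap. It encodes a small GTPase of the actin skeleton and of endosomes that also responds quickly to stress. It was 12.84, 12.76 and 12.76 in wildtype and 12.98, 12.87, 12.98 and 12.94 in knockout samples, and all 4 knockout samples lay above all 3 wildtype samples. The difference of 0.16 (SE 0.091, limma adjusted p = 0.521) corresponds to a ratio of 1.12 with a 95% confidence interval of 0.970-fold to 1.28-fold, and it did not pass. With the trend of each array with gene span removed, the difference was 0.077 (limma adjusted p = 0.786, within 0.304 to 0.786 over the 17 alternatives with 2 or more wildtype arrays). Genes of the dissociation response, which handling of tissue can induce, had a median difference of 0.047 over 17 genes tested, with 0 past the limma adjusted threshold and, at an unadjusted p under 0.05, 3 genes higher and 1 lower, beside 8.39% and 3.54% of all genes tested. The part of this response in the Rhob values was not tested.

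Nav3, a neuron navigator that binds microtubules, was 11.98, 11.77 and 11.63 in wildtype and 11.30, 11.52, 11.56 and 11.89 in knockout samples. Knockout replicates 1 to 3 lay below every wildtype sample and knockout replicate 4 lay among them, giving a difference of -0.22 (SE 0.15, limma adjusted p = 0.569). It has the longest genomic span of the members, and the difference was -0.082 (limma adjusted p = 0.790, within 0.277 to 0.858 over those 17 alternatives) after the trend of each array with gene span was removed. It was also -0.13 without wildtype replicate 1 or without knockout replicate 1. Golm1, a Golgi membrane protein, differed by -0.13 (SE 0.11), and Txnip, an inhibitor of thioredoxin and glucose uptake, by -0.054 (SE 0.11). Slc2a5, the fructose transporter GLUT5 of microglia, differed by -0.0045 (SE 0.10), Serinc3, a lipid-handling membrane protein, by -0.043 (SE 0.095), and Crybb1, a crystallin of the lens that microglia also express, by -0.0052 (SE 0.10). Ltc4s, the enzyme that makes leukotriene C4, differed by 0.096 (SE 0.10). Cst3 and Serinc3 lie on chromosome 2 with B2m, and their differences lay within the range of the members on other chromosomes.

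Shifts of the whole set between arrays crossed the genotypes. Wildtype replicate 1 lay above the 7-array mean in 25 of the 31 genes and held the highest value in 14, with a median deviation of 0.099. Knockout replicate 4 lay above the mean in 23 and held the highest value in 7, with a median deviation of 0.067. The other 5 arrays had median deviations from -0.049 to 0.0043, so the highest arrays came from both genotypes. The spread over genes was wide beside these shifts, since the deviations on wildtype replicate 1 ran from -0.19 to 0.60, the latter in Ecscr. Over all genes tested, the median deviation was 0.0077 on wildtype replicate 1 and 0.038 on knockout replicate 4. It lay from -0.0064 to 0.0073 on the other 5 arrays. For the further genes of microglial identity described below, it was 0.064 on wildtype replicate 1 and 0.085 on knockout replicate 4. Deviations correlated across the 31 genes with gene span at Spearman's rho from -0.469 in knockout replicate 3 to 0.335 in wildtype replicate 2, a description over genes that share arrays. Over all genes tested, rho was 0.361 in wildtype replicate 1, 0.136 in wildtype replicate 2 and 0.222 in knockout replicate 4. In the remaining arrays it lay from -0.254 to -0.149, so a trend with gene span was not particular to the members. With wildtype replicate 1 and knockout replicate 4 left out together, the median difference over the members was -0.0066.

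**Figure D3:**
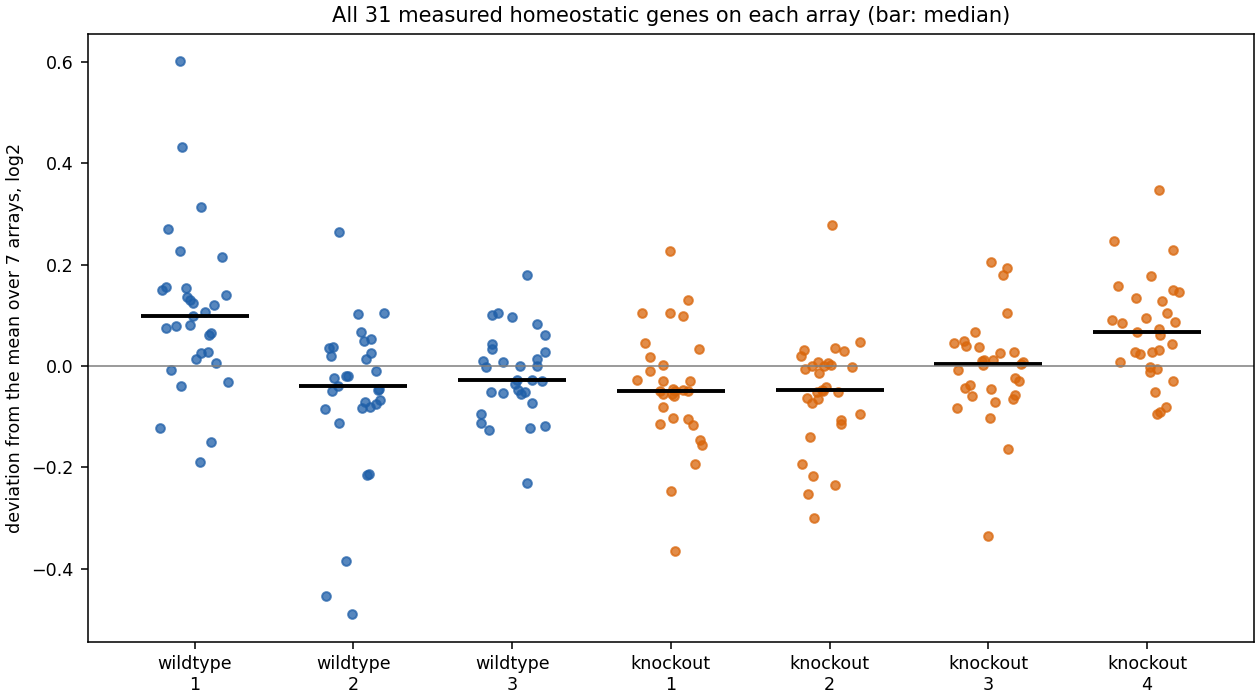
Deviation of each of the 31 measured homeostatic genes from its mean over the 7 arrays, on the log2 scale, with 1 point per gene, wildtype arrays in blue, knockout arrays in orange and the median as a black bar. The medians of wildtype replicate 1 (0.099) and knockout replicate 4 (0.067) lie highest, and those of the other 5 arrays lie between -0.049 and 0.0043.

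For markers of other cells, most differences between genotypes lay on one side of 0 in the endothelial and mural, neutrophil and monocyte lists. In each list of other cells, 0 genes passed the limma adjusted threshold. The 17 endothelial and mural markers tested all had differences below 0, with a median of -0.35, and 6 had an unadjusted p under 0.05. The 10 neutrophil markers tested all had differences above 0, with a median of 0.56, and 1 reached that p. Of the 7 monocyte markers tested, 5 had differences above 0, with a median of 0.69, and 3 reached it, all higher. Of all genes tested, 8.39% reached it with knockout higher and 3.54% with knockout lower. Markers of border-associated macrophages went both ways. Of 10 tested, 4 had differences above 0 and 6 below, with a median of -0.070, and 1 (lower) reached that p. Few markers of astrocytes, oligodendrocytes, neurons, and T and NK cells were tested (2, 4, 2 and 1). All measured markers of these cells lay below the negative control percentile on every array. Neutrophil markers, 10 of 10 measured, were highest in knockout replicate 4 (median deviation 1.27), and their summed level ranged from 15966 to 25730 in wildtype and from 15793 to 45763 in knockout samples. Monocyte markers, 9 of 10 measured, were highest there too (1.09), with sums from 3796 to 5983 in wildtype and from 4616 to 10035 in knockout samples, and 4 of the 9 lay below the negative control percentile on every array. Endothelial and mural markers, 18 of 18 measured, were highest in wildtype replicates 1 and 2 (0.38 and 0.45), with sums from 21662 to 31481 in wildtype and from 21984 to 24610 in knockout samples. In that list 8 of the 18 lay below the percentile on every array. Sums are of values taken back to the linear scale. The part of these cells in the values of the homeostatic genes was not tested. With both wildtype arrays highest in endothelial markers left out, the median difference over the members was 0.015. That setting keeps 1 wildtype array, so the knockout arrays alone give the spread and the lone wildtype sample is assumed to vary like them.

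Further genes of microglial identity, 49 of a list of 54, gave the same kind of result, with 0 past the limma adjusted threshold. Their median difference was -0.014, and 1 gene (higher) had an unadjusted p under 0.05. Of all genes tested, 8.39% were higher and 3.54% lower at that p, with a median difference of -0.0055. Aif1, which encodes the microglial marker IBA1, was 11.36, 11.63 and 11.70 in wildtype and 11.87, 11.83, 11.71 and 11.83 in knockout samples, a difference of 0.25 (SE 0.11, limma adjusted p = 0.416). Trem2, the lipid receptor needed for the disease-associated state, differed by 0.21 (SE 0.11), Slc46a1, the folate transporter, by 0.19 (SE 0.099) and Zfhx3, a homeobox factor, by -0.46 (SE 0.23). The genotypes did not overlap in Aif1 and Slc46a1, both higher in knockout samples and 2 of the 49 genes, beside 10.9% of all genes tested (7.1% higher). Slc46a1 was 9.44, 9.63 and 9.48 in wildtype and 9.66, 9.64, 9.82 and 9.73 in knockout samples. Zfhx3 was 10.84 in knockout replicate 4 and 9.79 to 10.06 in the other knockout samples, against 10.34 to 10.84 in wildtype.

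The disease-associated genes, which plaque microglia raise as homeostatic genes fall, are the nearest contrast within these data. The list named 35 genes, of which 30 were measured, and Cd68, Clec7a, Ctsd, Spp1 and Cd74 were not. Trem2 and Tyrobp were also among the further identity genes. The 1 call of the list was B2m, the disrupted gene. Of the other 29, 0 passed in limma, 6 (all higher) had an unadjusted p under 0.05, and 23 had differences above 0, with a median of 0.13. Of all 10004 genes tested, 8.39% were higher at that unadjusted p and 4866 had differences above 0. Lilrb4a, an inhibitory receptor, was 10.23, 10.50 and 10.52 in wildtype and 10.78, 10.64, 10.84 and 10.89 in knockout samples, a difference of 0.37 (SE 0.11, limma adjusted p = 0.320). The chemokine Ccl6 differed by 0.37 (SE 0.12, limma adjusted p = 0.327) and the cholesterol 25-hydroxylase Ch25h by 0.58 (SE 0.21, limma adjusted p = 0.349). Ch25h was 9.70, 9.95 and 9.65 in wildtype and 10.62, 10.20, 10.77 and 9.79 in knockout samples, so knockout replicate 4 lay within the wildtype range. The median over this list, B2m included, was 0.12, and it was -0.00062 without wildtype replicates 1 and 2, which were the lowest arrays of the list (-0.15 and -0.14). The difference between the medians of the homeostatic and disease-associated lists was not tested.

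**Figure D4:**
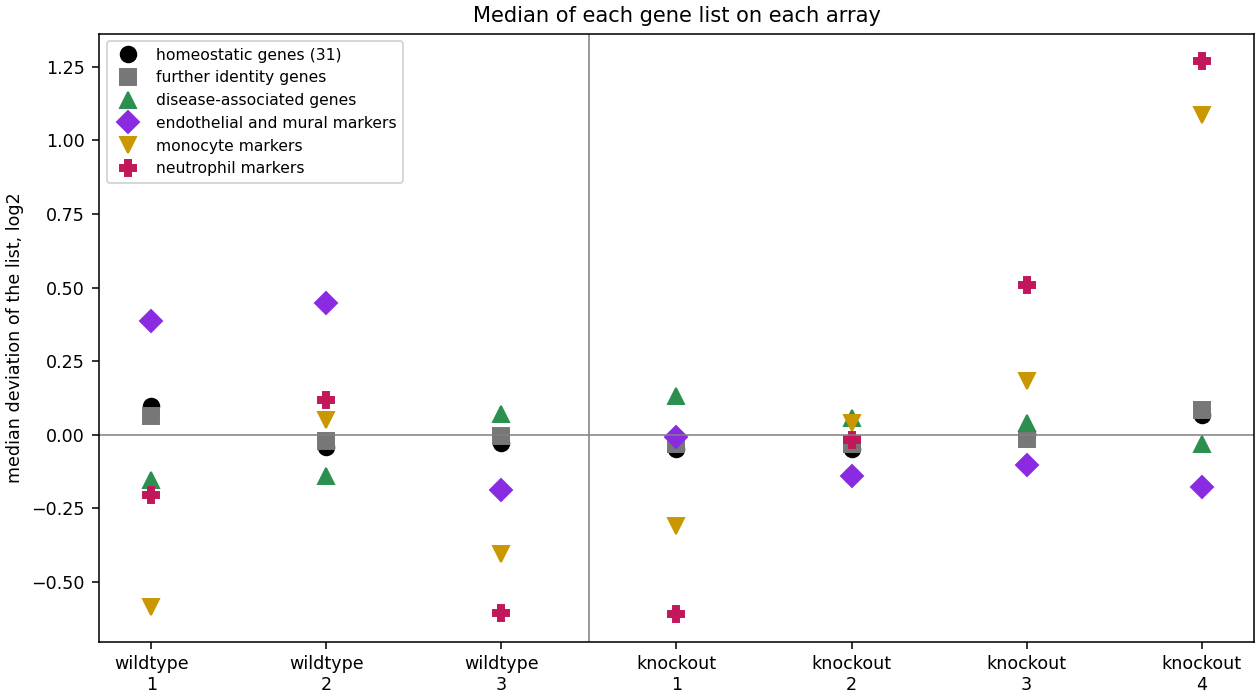
Median deviation of 6 gene lists from their 7-array means on each array, on the log2 scale, with wildtype arrays left and knockout arrays right of the vertical line; the disease-associated list is shown without B2m. Homeostatic genes stay within 0.1 of 0 on each array, while neutrophil (1.27) and monocyte (1.09) markers peak in knockout replicate 4 and endothelial and mural markers (0.38 and 0.45) in wildtype replicates 1 and 2.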

How the data were processed

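The deposited values are log2 expression per probe set, which the authors made with RMA (background correction, normalization between arrays, probe summary) in Expression Console 1.1 from Affymetrix, as the submitters' processing notes list. The sources used here do not give the array's build or annotation. The table held 28846 rows with array medians from 7.68 to 7.75, and it was not normalized again. GEO's platform annotation named 19572 rows, all matched by Entrez identifier to RefSeq (GRCm38.p6), giving 19505 genes. Rows to which the annotation gave several gene symbols were left out. Of several probe sets of a gene, the one with the highest mean was kept. Groups follow the genotype labels, and replicates are numbered in deposit order, without pairing.

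A gene was tested when it exceeded the median of named genes of its array on at least 3 of the 7 arrays (10004 genes). Knockout was compared with wildtype over all 7 arrays in limma 3.58.1 (R 4.3.3; lmFit, eBayes), with Benjamini-Hochberg adjustment over all genes tested and a threshold of 0.05. The number of arrays limits the precision. The fit was tested on simulated data. Rows tagged neg were read as negative controls from the tag alone. No gene list was tested as a set; lists are described by counts and medians.

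The members and lists were chosen with earlier results of these data known. Values of every array are given for P2ry12, Tmem119, Cx3cr1, Sall1 and Csf1r, for members at an unadjusted p under 0.05, for the 6 with the largest differences, and for members without overlap or with an outlying knockout sample. From each further list up to 4 genes with the smallest p are named. Gpr84 and Ecscr were given by array after their values were seen. Alternatives were the filter, the variance prior, array weights, repeated quantile normalization, centring, the mean of probe sets, removal of the gene span trend, and leaving out samples.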

Additional observations from a re-analysis of the deposited data

Results flagged for a closer look

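In the 31 members, 1 knockout group had a sample set apart by Dixon's ratio, the gap to the nearest sample over the whole range. For Csf1r, knockout replicate 4 was 13.36 while the other knockout samples lay at 13.28 to 13.29, a ratio of 0.855, above the 95% critical value for 4 samples. Chance alone flags about 1 in 20 such groups. The sample lay within the wildtype range of 13.26 to 13.47.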

How the results depend on the processing

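In the 17 alternatives with 2 or more wildtype arrays, 0 members and 0 further identity genes passed in limma, and the lowest adjusted p of the 11 members followed was 0.238 (Lag3 without knockout replicate 4). The other alternative, with 1 wildtype array, gave an adjusted p of 0.999 for each of the 11 and says nothing about stability. The disease-associated list kept its 1 call, B2m, throughout. Lag3, Upk1b, Nav3, Gpr34, Rhob, Fcrls and P2ry12 kept their direction in each of the 18, and removing the gene span trend moved Rhob from 0.16 to 0.077. The median over the members ran from -0.048 to 0.0041 when single samples were left out and from -0.055 (repeated quantile normalization) to 0.020 (centring) otherwise. The sign of Tmem119 turned to -0.025 with repeated quantile normalization, -0.029 with the gene span trend removed, -0.088 without both wildtype arrays highest in endothelial markers and -0.022 without wildtype replicate 1 and knockout replicate 4, an alternative chosen after seeing the data. Without those wildtype arrays Csf1r turned to 0.044 and Sall1 to 0.072. With single samples left out, Tmem119 ran from -0.056 to 0.088 and Cx3cr1 from -0.11 to 0.023. The cause was not tested.

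Counts at an unadjusted p under 0.05 moved. For the members, 2 became 1 with repeated quantile normalization, with centring, and without wildtype replicate 1 and knockout replicate 4. It became 0 to 2 with single samples left out. With an intensity trend Rhob joined Lag3 and Upk1b, making 3. For the further identity genes, 1 became 4 with an intensity trend, 3 with a robust prior as well, 3 with array weights, 3 with centring, 0 with the span trend removed and 2 without wildtype replicate 1 and knockout replicate 4, and 0 to 4 with single samples left out. For the disease-associated genes, 7 became 10 with an intensity trend, 10 with a robust prior as well and 10 with array weights. The count was 9 with centring, 5 with the span trend removed and 6 without wildtype replicate 1 and knockout replicate 4. It was 3 to 10 with single samples left out. Their median was -0.00062 without both wildtype arrays highest in endothelial markers. No paired analysis was possible because the replicate numbers follow deposit order and carry no pairing.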
